A study of Sus scrofa with 12 samples.

Results

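The proteasome genes of post mortem pig muscle were followed over the first day after slaughter. They were taken as the array probe sets whose single gene symbol begins with PSMA, PSMB, PSMC, PSMD, PSME, PSMF or PSMG. This gave 46 probe sets for 40 genes, out of 23999 probe sets tested and 6765 genes with a symbol of their own, and each gene was represented by its brightest probe set over the 12 arrays. The RNA came from the semimembranosus muscle of the left leg in 3 female commercial hybrids, each weighing about 160 kg. All pigs were raised on 1 farm and stunned with CO2 at 87%. The muscle was sampled at 20 min (T0), 2 h (T1), 6 h (T2) and 24 h (T3) after death while the carcass was chilled towards 4 °C, so each time has 3 arrays, 1 from each pig, and the groups differ in nothing else that the labels name. Each portion is 1 sample of the muscle at that time, with no repeat array. No earlier sample than 20 min enters, so that the first array of each pig is already post mortem, and all 3 comparisons with 20 min share these arrays.

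The proteasome is the large protease that degrades proteins marked with ubiquitin. Its barrel-shaped core is built from outer rings of alpha subunits, which gate the entrance, and inner rings of beta subunits, 3 kinds of which carry the active sites. A cap binds ubiquitin, unfolds the substrate with a ring of ATPases and removes the ubiquitin with a lid complex; other activators can take the place of the cap. In skeletal muscle the ubiquitin-proteasome route is the main path by which myofibrillar proteins are broken down during wasting. The 40 genes comprise 7 alpha subunits, 7 constitutive beta subunits, 2 inducible beta subunits, 5 cap ATPases, 3 further base subunits, 7 lid subunits, 5 activator and inhibitor genes and 4 assembly chaperones. The Sscrofa11.1 RefSeq gene table holds 49 symbols with these beginnings. The other 9, PSMA8, PSMB9, PSMB11, PSMC3IP, PSMC4, PSMD7, PSMD9, PSMG2 and PSMG4, had no probe set of their own symbol and were not analysed here.

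The median log2 value of an array was 5.89 to 5.94. Pairs of arrays had correlations of 0.986 to 0.997 over the probe sets, which are not independent replicates. Of the 14 skeletal muscle marker genes listed, 10 were on the array, and their mean log2 level lay between 14.15 and 14.23 on each array. As a measure of RNA quality, the log2 level at the 3′ end less that at the 5′ end moved between 20 min and 24 h by 0.38, -0.010 and 0.47 in pigs 1, 2 and 3 for EF1A, and for GAPDH by 0.061, 0.0098 and 0.039. For actin it moved by 0.094, -0.23 and -0.044, so the 3 controls did not have the same signs. From 20 min to 2 h it moved by 0.077, 0.49 and 0.26 for EF1A and by -0.22, 0.31 and -0.19 for actin. From 20 min to 6 h it moved by 0.062, -0.038 and 0.21 for EF1A and by -0.34, -0.20 and -0.0064 for actin. For GAPDH these moves were 0.0013, 0.036 and -0.067 at 2 h and -0.0046, -0.085 and -0.045 at 6 h. As the arrays were normalised to a common distribution, a loss of RNA common to all transcripts would not show in these values.

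Transcripts of the proteasome stayed within narrow limits through the 24 h, and no member passed the test at any time. In the limma F test over the 4 times with pig as a block, 0 of 40 genes had an adjusted p under 0.05 (smallest adjusted p = 0.589), against 1 probe set, 0.00417%, of all those tested. At unadjusted p under 0.05 there was 1 of 40, PSMD3, against 8.22% of all probe sets. In the comparisons of 2 h, 6 h and 24 h with 20 min, 0, 0 and 0 members passed after adjustment (smallest limma adjusted p = 0.614, 0.488 and 0.342), against 0%, 0% and 0.00417% of all probe sets. The steps from 2 h to 6 h and from 6 h to 24 h gave 0 members after adjustment (smallest limma adjusted p = 1.00 and 0.624), and 0% of all probe sets in either step. At unadjusted p under 0.05 both steps had 0 of 40, against 2.26% and 8.08% of all probe sets.

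The precision of the arrays allowed narrow bounds for most members. At 24 h, the 95% interval of the change from 20 min lay within 1.5-fold in either direction for 40 of 40 genes and within 1.25-fold for 33, or 82.5%. Over all 6765 genes these shares were 93.1% and 49.0%. At 2 h and at 6 h the interval lay within 1.5-fold for 39 of 40 genes each, with PSMB3 the exception. The median SD of a member over the 12 arrays was 0.092 on the log2 scale, against 0.15 over all genes, and 36 of 40 members had an SD under 0.2, against 73.6% of all genes. None of the 40 lay among the dimmest 40% of probe sets, and no set of genes of like brightness was compared. The contrast with all genes is therefore not shown to be particular to the proteasome. At 24 h the 1.25-fold share was 80% for skeletal muscle markers, 83.3% for proteasome partners and 69.2% for ubiquitin genes (lists given below). It was 31.25% for interferon genes, 30% for endothelial and for fibroblast markers, and 0% for leukocyte, adipocyte and blood markers.

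**Figure D1:**
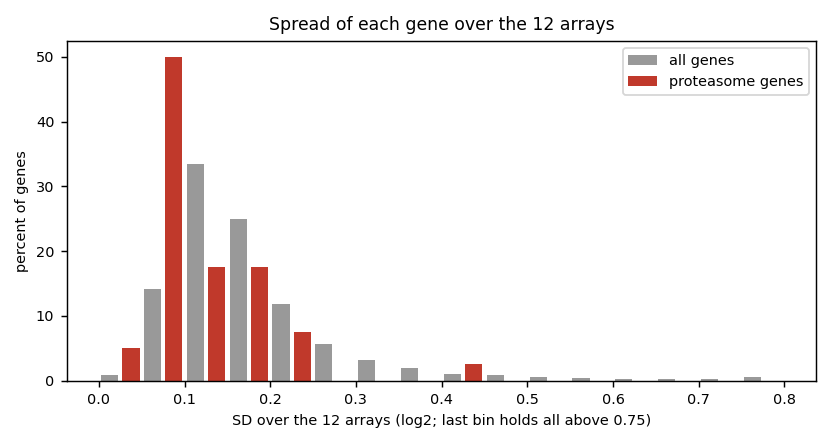
Share of genes (y axis, percent) by the SD of their log2 level over the 12 arrays (x axis), for all 6765 genes in grey and the 40 proteasome genes in red. Of the proteasome genes 20 of 40 fall between 0.05 and 0.1, where 14.2% of all genes lie, and 1, PSMB3, lies above 0.4.

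Small negative values outnumbered positive ones at 2 h and 24 h and were about even with them at 6 h. The median log2 change of the 40 genes was -0.040 at 2 h, -0.0061 at 6 h and -0.050 at 24 h. Over all probe sets the medians were -0.00017, -0.0065 and 0.0082. Over all 6765 genes, each by its brightest probe set like the members, they were -0.0076, -0.0051 and -0.011. Between 20 min and 2 h, 31 of 40 genes had a negative change, against 50.0% of all probe sets and 52.5% of all genes. Of the 40, 15 were lower in 3 of 3 pigs, against 14% of all probe sets and 16.8% of all genes. In 3 of 3 pigs 2 were higher, against 13.8% and 14.0%. At 6 h, 21 had a negative change, against 51.8% of all probe sets and 51.3% of all genes. In 3 of 3 pigs 7 were lower (against 16.6% and 17.8%) and 7 higher (against 15.4% and 16.0%). At 24 h, 30 had a negative change, against 48.0% of all probe sets and 52.8% of all genes. In 3 of 3 pigs 16 were lower (against 16.7% and 21.1%) and 2 higher (against 17.8% and 16.3%). The genes were measured on the same arrays, so their number is not a number of independent observations. At unadjusted p under 0.05, 2 genes were higher and 0 lower at 2 h (against 4.01% and 3.94% of all probe sets), 1 higher and 0 lower at 6 h (against 4.29% and 4.54%), and 1 higher and 2 lower at 24 h (against 6.41% and 6.67%).

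The negative changes were unequal between the pigs. In pig 1, 34 of 40 genes lay below their own 20 min level at 24 h, with a median log2 change of -0.13, whereas in pig 2 there were 22, with a median of -0.0058, and in pig 3 there were 28, with a median of -0.023. Over all genes the medians in these pigs were -0.036, 0.012 and -0.0060. At 2 h the same count was 33, 28 and 20 in pigs 1, 2 and 3, and at 6 h it was 30, 19 and 14. Pig 1 had the highest count at each of the 3 times. Over all genes the share below 20 min was also highest in pig 1, at 53.3%, 56.2% and 58.2% at 2 h, 6 h and 24 h. In pig 2 it was 50.5%, 46.8% and 47.3%, and in pig 3 50.6%, 49.3% and 51.1%. The mean change of the 40 genes at 24 h was -0.12, 0.011 and -0.026 in the 3 pigs, with a mean of -0.046 ± 0.069 (SD, n = 3). The 3′ to 5′ gap of EF1A was larger at 24 h in pigs 1 and 3 than at 20 min and nearly equal in pig 2. At 2 h the EF1A gap was larger than at 20 min in 3 of 3 pigs, most of all in pig 2. At 24 h the gap of GAPDH differed by 0.061 or less in each pig, and that of actin was smaller in pigs 2 and 3. The part of these gaps in the result was not tested.

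**Figure D2:**
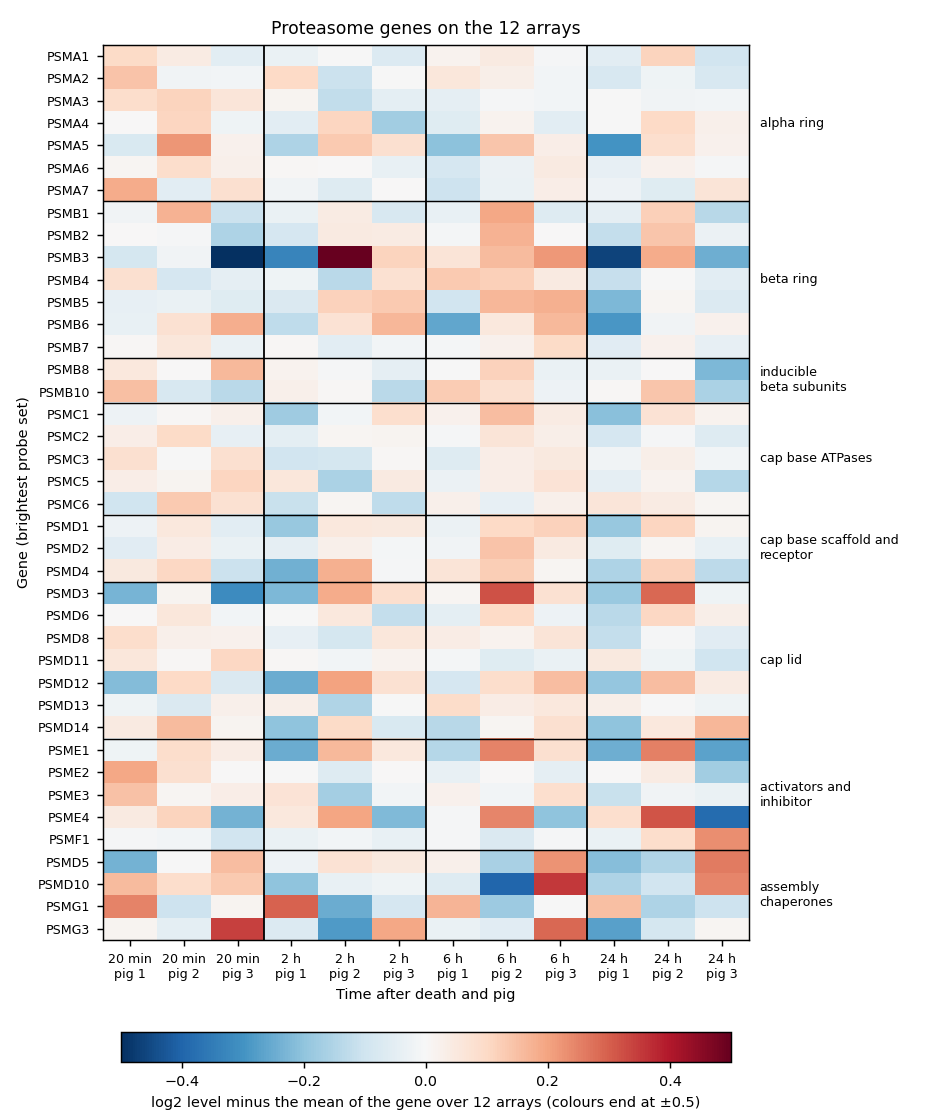
Log2 level of each of the 40 genes (rows, grouped by role) on each of the 12 arrays (columns, by time and pig), minus the mean of the gene over the 12 arrays, with red above and blue below the mean. PSMB3 reaches the ends of the colour scale, and PSMB6, PSMD12 and PSMA5 are blue in pig 1 on all 4 of its arrays, 20 min included.

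The alpha ring had small negative changes in nearly every gene at each later time. Of its 7 genes, 7 had a negative change at 2 h (-0.14 to -0.037 on the log2 scale), 7 at 6 h (-0.11 to -0.0075) and 6 at 24 h (-0.12 to 0.013), and 0 passed. Over all genes, 52.5%, 51.3% and 52.8% had a negative change at these times. The mean change of the alpha ring was -0.070 ± 0.019, -0.060 ± 0.058 and -0.067 ± 0.059 (SD over 3 pigs). It stayed negative with cyclic loess and when the arrays were centred on their brightest probe sets. PSMA3, an alpha subunit of the ring, had log2 levels of 12.51, 12.53 and 12.48 in pigs 1, 2 and 3 at 20 min, 12.43, 12.30 and 12.37 at 2 h, 12.38, 12.41 and 12.41 at 6 h and 12.42, 12.40 and 12.41 at 24 h. Its 3 values at 20 min were thus the highest of the 12, with no overlap with any later time. PSMA3 was named for the smallest F test p of its role, and the share of all probe sets with no such overlap was not taken. The changes of PSMA3 were -0.14 ± 0.084, -0.11 ± 0.029 and -0.097 ± 0.028 (limma adjusted p = 0.652, 0.679 and 0.593).

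PSMA5, another alpha subunit, differed more between pigs than between times. Its log2 level was 10.98, 11.27 and 11.07 at 20 min, 10.90, 11.18 and 11.13 at 2 h, 10.85, 11.19 and 11.09 at 6 h and 10.76, 11.14 and 11.08 at 24 h. Pig 1 was lowest and pig 2 highest at every time, and the means of the pigs spanned 0.33, against 0.12 for the means of the times. The change of PSMA5 at 24 h was -0.12 ± 0.11 (limma adjusted p = 0.516). The other alpha subunits, PSMA1, PSMA2, PSMA4, PSMA6 and PSMA7, had changes at 24 h between -0.097 ± 0.11 for PSMA2 and 0.013 ± 0.032 for PSMA4. PSMA6 had the smallest SD of the 40 genes over the 12 arrays, 0.045.

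The beta ring had a positive mean at 2 h and 6 h and a negative one at 24 h, and the pigs were far apart. Its mean change was 0.076 ± 0.14 at 2 h, 0.097 ± 0.11 at 6 h and -0.032 ± 0.12 at 24 h (SD over 3 pigs), with -0.17, 0.041 and 0.037 in pigs 1, 2 and 3 at 24 h. These signs held with cyclic loess and with the arrays centred on their brightest probe sets, but at 24 h the mean was 0.039 without pig 1. At 2 h 3 of 7 genes had a positive change, at 6 h 6 of 7 and at 24 h 2 of 7. Over all genes, 52.5%, 51.3% and 52.8% had a negative change at these times.

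PSMB3, a non-catalytic beta subunit, gave most of the positive mean. Its log2 level was 7.81, 7.88 and 7.31 in pigs 1, 2 and 3 at 20 min and 7.57, 8.90 and 8.01 at 2 h. At 6 h it was 7.96, 8.06 and 8.11 and at 24 h 7.44, 8.08 and 7.65. The 2 h array of pig 2 and the 20 min array of pig 3 were the highest and lowest of the 12, and the 20 min and 2 h values overlapped. The change of PSMB3 at 2 h was 0.49 ± 0.66, a 1.41-fold higher level with a 95% interval of the log2 change from 0.037 to 0.95 (limma adjusted p = 0.614, unadjusted p = 0.0362), and it was -0.24, 1.02 and 0.70 in the 3 pigs. It was 0.86 without pig 1, 0.23 without pig 2 and 0.39 without pig 3. The change was 0.38 ± 0.37 at 6 h and 0.058 ± 0.38 at 24 h, and PSMB3 had the largest SD of the 40 genes, 0.41.

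The catalytic beta subunits had smaller differences. PSMB6 encodes the subunit with caspase-like activity, and its log2 level was 11.25, 11.37 and 11.47 at 20 min, 11.16, 11.36 and 11.46 at 2 h, 11.03, 11.34 and 11.45 at 6 h and 10.999, 11.27 and 11.31 at 24 h. At 24 h it was below 20 min in 3 of 3 pigs, while the values of the 2 times overlapped, with pig 1 lowest throughout. The change of PSMB6 at 24 h was -0.17 ± 0.079, with a 95% interval from -0.34 to -0.0018 (limma adjusted p = 0.378, unadjusted p = 0.0479). PSMB5, which carries the chymotrypsin-like activity, had log2 changes of 0.10 ± 0.12 at 2 h, 0.13 ± 0.16 at 6 h and -0.050 ± 0.12 at 24 h (limma adjusted p = 0.745, 0.655 and 0.818). Its log2 levels were 10.77, 10.77 and 10.75 at 20 min and 10.71, 10.97 and 10.98 at 6 h, where pig 1 alone lay below its 20 min level. PSMB7, with trypsin-like activity, had an SD of 0.045 over the 12 arrays, near that of PSMA6, and a change of -0.036 ± 0.028 at 24 h. PSMB2 and PSMB4, non-catalytic subunits that are used as reference genes in quantitative PCR, had changes of 0.050 ± 0.15 and -0.040 ± 0.14 at 24 h and an SD of 0.095 and 0.090 over the 12 arrays.

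**Figure D3:**
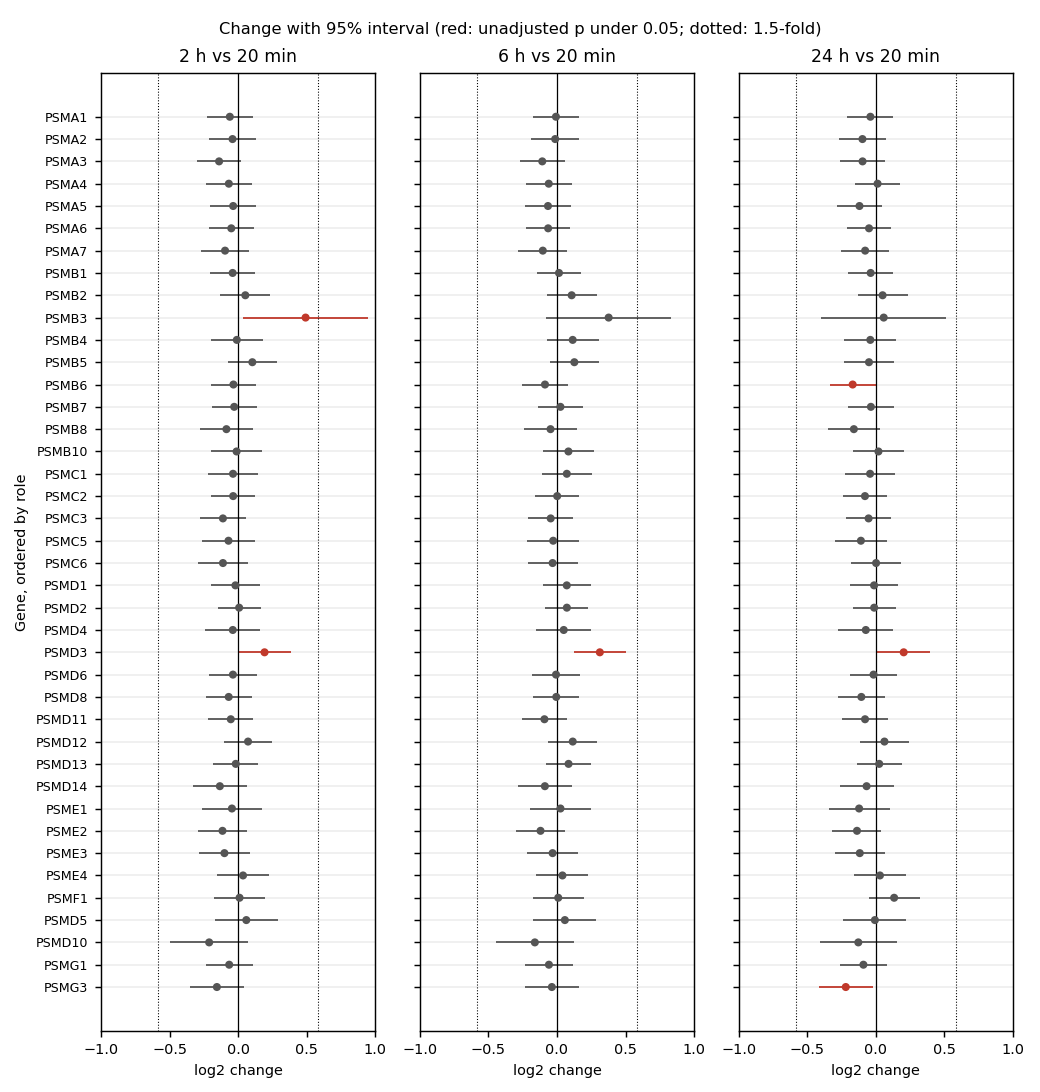
Log2 change from 20 min (x axis) of each of the 40 genes (rows, in the order of their roles) at 2 h, 6 h and 24 h; points are means over 3 pigs and lines 95% intervals of the limma fit. Intervals of 39, 39 and 40 genes lie inside the dotted lines at 1.5-fold; red marks the 2, 1 and 3 genes at an unadjusted p under 0.05, with 0 past the threshold after adjustment.

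Inducible beta subunits replace the catalytic ones in immune cells and under interferon, giving the immunoproteasome that favours peptides for presentation on class I molecules. PSMB8, which takes the place of PSMB5, had log2 levels of 6.67, 6.62 and 6.78 at 20 min, 6.64, 6.61 and 6.57 at 2 h, 6.62, 6.73 and 6.59 at 6 h and 6.59, 6.62 and 6.39 at 24 h. The highest value at 24 h and the lowest at 20 min, both of pig 2, were the same to 2 decimals, and the others lay apart. The change of PSMB8 at 24 h was -0.16 ± 0.20, with -0.088, -0.0034 and -0.39 in pigs 1, 2 and 3 (limma adjusted p = 0.452, unadjusted p = 0.0938), most of it from pig 3. PSMB10, which takes the place of PSMB7, had a log2 change of 0.019 ± 0.19 at 24 h, with -0.14, 0.22 and -0.022 in the pigs (limma adjusted p = 0.94). In the Sscrofa11.1 gene order TAP1, a peptide transporter gene, lies between PSMB8 and PSMB9, and PSMB11 lies next to PSMB5.

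The macrophage and leukocyte markers did not share 1 direction at 24 h. Over the 16 of 21 markers on the array, the mean log2 level ranged from 5.88 to 6.30 at 20 min and from 5.52 to 5.97 at 24 h, and the mean change at 24 h was -0.17, 0.024 and -0.78 in pigs 1, 2 and 3. Of these 16, 7 had a positive and 9 a negative change, against 48.0% of all probe sets and 52.8% of all genes with a negative one. At an unadjusted p under 0.05, 2 (CD14 and CD2) were higher and 6 (CD163, C1QA, C1QC, MRC1, AIF1 and ITGB2) lower, against 6.41% and 6.67% of all probe sets, and 0 passed after adjustment (smallest limma adjusted p = 0.193). The macrophage genes C1QC, CD163, C1QA and MRC1 had changes of -1.63 ± 1.15, -1.29 ± 0.98, -1.01 ± 0.80 and -0.78 ± 1.03, each with its most negative value in pig 3. The lymphocyte genes CD2, CD3E, CD79B and CD3D had changes of 0.26 ± 0.22, 0.17 ± 0.097, 0.16 ± 0.20 and 0.15 ± 0.26. These genes were named after their values were seen, except for C1QC, CD163 and C1QA. Of the rest of the 16, CD14, PTPRC and CD74 had changes of 0.22 ± 0.099, 0.15 ± 0.14 and 0.10 ± 0.61. LAPTM5, ITGB2, FCER1G, TYROBP and AIF1 had changes of -0.12 ± 0.88, -0.24 ± 0.19, -0.25 ± 0.45, -0.32 ± 0.56 and -0.48 ± 0.61. PTPRC, CD3E, CD2 and CD79B lay among the dimmest 40% of probe sets. Over 16 of 21 genes of interferon response and antigen presentation the mean change at 24 h was -0.14, 0.19 and -0.14. The part of either in the PSMB8 values was not tested. In bulk muscle, fewer cells of a type and less RNA in each of them cannot be told apart. TAPBP, which bridges class I molecules and the peptide transporter, had the smallest F test p of the interferon list, with changes of 0.29 ± 0.19 at 2 h, 0.35 ± 0.20 at 6 h and 0.22 ± 0.20 at 24 h (limma adjusted p = 0.592, 0.488 and 0.378). IFIT1, a gene induced by interferon, had changes of 0.31 ± 0.23 at 2 h, higher in 3 of 3 pigs, 0.26 ± 0.23 at 6 h and -0.029 ± 0.39 at 24 h (limma adjusted p = 0.614, 0.590 and 0.941). OAS1, another such gene, had changes of 0.097 ± 0.054, 0.17 ± 0.18 and -0.20 ± 0.36 (limma adjusted p = 0.850, 0.706 and 0.501). Of the 16 genes, 1 was higher and 0 lower at an unadjusted p under 0.05 at 24 h, against 6.41% and 6.67% of all probe sets, and 0 passed after adjustment.

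The ATPases of the cap base unfold the substrate and open the core. They had negative changes at 2 h in 5 of 5 genes (-0.11 to -0.037), against 52.5% of all genes. The mean change was -0.073 ± 0.027 at 2 h, -0.0065 ± 0.0074 at 6 h and -0.056 ± 0.036 at 24 h (SD over 3 pigs), with the same signs with cyclic loess and with the arrays centred on their brightest probe sets, though at 6 h it was 0.012 with the dimmest probe set of each gene. Of these genes PSMC6 had the smallest F test p, with changes of -0.11 ± 0.095, -0.032 ± 0.15 and 0.0021 ± 0.14 (limma adjusted p = 0.729, 0.928 and 0.993). PSMC1 stood at 11.14, 11.17 and 11.19 at 20 min and 10.95, 11.24 and 11.18 at 24 h, with changes of -0.19, 0.067 and -0.0063 in pigs 1, 2 and 3. PSMC3 and PSMC5 had changes of -0.053 ± 0.074 and -0.11 ± 0.13 at 24 h. PSMC2 has 3 probe sets, with changes at 24 h of -0.079 ± 0.049 for the brightest, -0.045 ± 0.12 for the middle and -0.089 ± 0.12 for the dimmest.

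The 3 further base subunits had a mean change at 24 h of -0.032 ± 0.079 (SD over 3 pigs), which was 0.013 without pig 1. PSMD1 and PSMD2 are the large scaffold subunits, and their changes at 24 h were -0.013 ± 0.13 and -0.012 ± 0.014 (limma adjusted p = 0.96 and 0.957). The values of PSMD2 were -0.0029, -0.028 and -0.0045 in pigs 1, 2 and 3. A dimmer probe set of PSMD1 had a log2 change of -0.0060 ± 0.017. PSMD4, a ubiquitin receptor, had log2 levels of 11.16, 11.21 and 10.999 at 20 min and 10.87, 11.28 and 11.099 at 2 h, 11.17, 11.23 and 11.11 at 6 h and 10.95, 11.22 and 10.98 at 24 h. Pig 2 was highest at every time, and the change of PSMD4 at 24 h was -0.073 ± 0.12 (limma adjusted p = 0.756).

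By the brightest probe set of each gene, PSMD3, a structural subunit of the lid, had the largest change of the lid genes. By the same measure PSMD3 had the smallest F test p of the 40. Its log2 level was 9.89, 10.14 and 9.81 in pigs 1, 2 and 3 at 20 min, 9.90, 10.31 and 10.21 at 2 h, 10.13, 10.44 and 10.20 at 6 h and 9.94, 10.41 and 10.10 at 24 h. Each later array was above the 20 min array of the same pig, while the values of the times overlapped, with pig 2 highest throughout. The changes of PSMD3 were 0.19 ± 0.20 at 2 h, 0.31 ± 0.075 at 6 h and 0.20 ± 0.14 at 24 h, with 95% intervals of 0.0012 to 0.38, 0.12 to 0.50 and 0.012 to 0.39. The unadjusted p was 0.0488, 0.00399 and 0.0389, and none of the 3 passed (limma adjusted p = 0.625, 0.488 and 0.362). At 6 h the 3 pigs were close, at 0.24, 0.30 and 0.39, a mean of 1.24-fold. Without pig 3 the change at 2 h was 0.090, and over the alternative fits the change at 6 h lay between 0.25 and 0.35.

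The 3 probe sets of PSMD11, a lid subunit, did not follow the same course. The brightest stood at 12.50, 12.44 and 12.54 at 20 min and 12.43, 12.38 and 12.40 at 6 h, a change of -0.092 ± 0.040. The middle one had a log2 change of 0.057 ± 0.15 at 6 h and -0.22 ± 0.097 at 24 h. The dimmest stood at 9.24, 9.18 and 8.94 at 20 min, 9.33, 9.58 and 9.57 at 2 h, 9.38, 9.61 and 9.30 at 6 h and 8.98, 9.37 and 8.97 at 24 h. Its values at 2 h and at 6 h lay wholly above those at 20 min, and at 24 h they overlapped with them. The share of all probe sets apart in this way was not taken. The dimmest set had log2 changes of 0.37 ± 0.27 at 2 h, 0.31 ± 0.15 at 6 h and -0.014 ± 0.23 at 24 h (limma adjusted p = 0.579, 0.507 and 0.966), with an F test adjusted p = 0.535. Its change at 2 h was larger than any change of PSMD3, and its F test p was smaller. From 6 h to 24 h the middle and dimmest sets had log2 changes of -0.28 ± 0.15 and -0.32 ± 0.084, lower in 3 of 3 pigs each (limma adjusted p = 0.589 for the first and 0.589 for the second). These were the 2 of 46 probe sets at an unadjusted p under 0.05 in that step, against 8.08% of all probe sets.

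**Figure D4:**
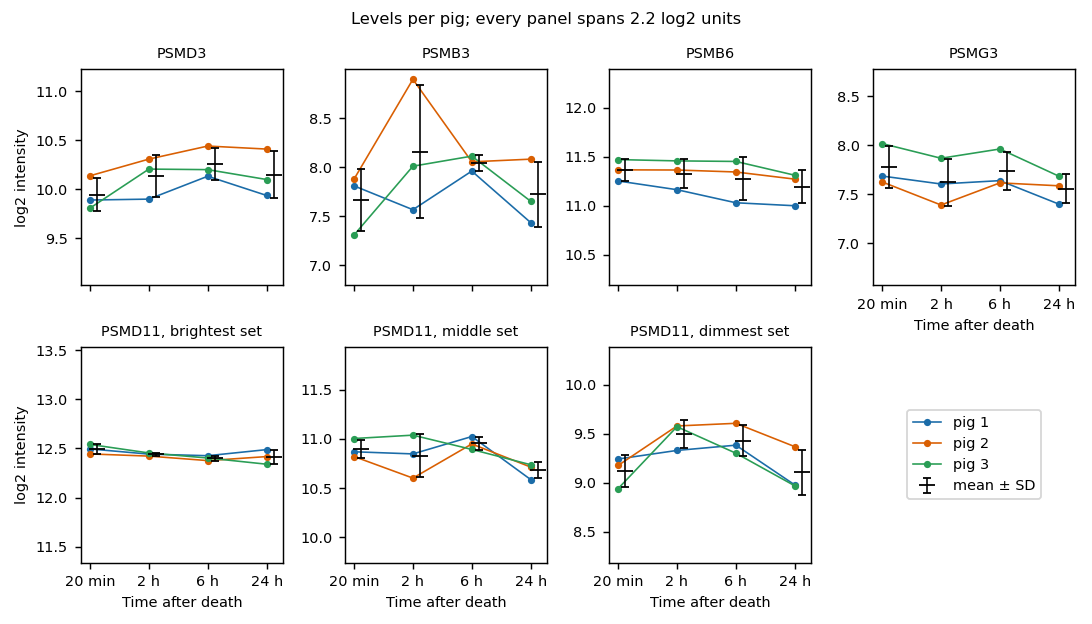
Log2 intensity (y axis) of PSMD3, PSMB3, PSMB6, PSMG3 and the 3 probe sets of PSMD11 at the 4 times (x axis) in each pig (coloured lines), with mean ± SD over 3 pigs in black; each panel has its own centre and the same height. PSMD3 is above its 20 min level at every later time in each pig, and of the PSMD11 sets the dimmest is above it at 2 h and 6 h in each pig while the brightest is below.

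The other lid genes showed no change that passed. The mean change of the 7 lid genes was -0.0069 ± 0.048 at 2 h, 0.046 ± 0.036 at 6 h and 0.0034 ± 0.062 at 24 h (SD over 3 pigs). The sign at 2 h and 24 h depended on the setting: the mean at 2 h was 0.0050 with cyclic loess, and at 24 h it was -0.015 without pig 2. Over the 12 alternatives the mean ran from -0.030 to 0.054 at 2 h, from 0.025 to 0.103 at 6 h and from -0.017 to 0.039 at 24 h. PSMD8 had a log2 change of -0.11 ± 0.090 at 24 h, lower in 3 of 3 pigs (limma adjusted p = 0.575). PSMD14, the deubiquitinase of the lid, had a log2 change of -0.13 ± 0.097 at 2 h and -0.067 ± 0.20 at 24 h. PSMD6, PSMD12 and PSMD13 had changes at 24 h of -0.017 ± 0.10, 0.063 ± 0.045 and 0.025 ± 0.063.

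Activators bind the core in place of the cap. PSME1 and PSME2 encode the 2 subunits of the interferon-inducible activator PA28, and in the Sscrofa11.1 gene order they are parted by 1 gene, EMC9. PSME2 had log2 levels of 8.74, 8.62 and 8.54 at 20 min, 8.54, 8.48 and 8.54 at 2 h, 8.503, 8.54 and 8.496 at 6 h and 8.54, 8.58 and 8.37 at 24 h. The lowest value at 20 min and the highest at 2 h and at 6 h were the same to 2 decimals, and the other values at 20 min lay above. The change of PSME2 at 24 h was -0.14 ± 0.085 (limma adjusted p = 0.484), lower in 3 of 3 pigs. PSME1 had a log2 change of -0.12 ± 0.25, with -0.22, 0.16 and -0.30 in pigs 1, 2 and 3 (limma adjusted p = 0.622). The mean changes of the interferon list, of the 40 proteasome genes and of all 6765 genes had these same signs in the 3 pigs at 24 h, so the signs are not particular to PSME1 or to that list.

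PSME3 encodes the nuclear relative of PA28, and its change at 24 h was -0.12 ± 0.13. PSME4, which encodes the activator PA200, differed between pigs and hardly with time. Its log2 level was 10.46, 10.53 and 10.18 at 20 min and 10.50, 10.73 and 10.03 at 24 h, with pig 2 highest and pig 3 lowest at all 4 times. The pig means of PSME4 spanned 0.48 and the time means 0.040. PSMF1, which encodes the inhibitor PI31, had a log2 change of 0.13 ± 0.18 at 24 h in its brighter probe set and of -0.19 ± 0.34 in the dimmer one, so that the sets had opposite signs (limma adjusted p = 0.512 and 0.567). The mean change of the 5 genes at 24 h was -0.042 ± 0.11 (SD over 3 pigs), and 0.0030 without pig 1.

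Assembly chaperones help the rings and the cap base to form and are not part of the finished particle. All 4 had a negative change at 24 h (-0.22 to -0.0066), against 52.8% of all genes. The mean change of the 4 was -0.11 ± 0.056 (SD over 3 pigs). That mean stayed negative with cyclic loess and with the arrays centred on their brightest probe sets. PSMG3 had log2 levels of 7.69, 7.63 and 8.02 at 20 min, 7.60, 7.39 and 7.87 at 2 h, 7.64, 7.62 and 7.96 at 6 h and 7.40, 7.59 and 7.68 at 24 h. Its 24 h value was below 20 min in each pig, though the 2 times overlapped. The change of PSMG3 at 24 h was -0.22 ± 0.16, with -0.29, -0.039 and -0.33 in the pigs and a 95% interval from -0.42 to -0.023 (limma adjusted p = 0.342, unadjusted p = 0.0316). PSMG1, a chaperone of the alpha ring, had a log2 change of -0.090 ± 0.035 (limma adjusted p = 0.635). Pig 1 had the highest PSMG1 level at every time, from 10.13 to 10.28. The base chaperone genes PSMD5 and PSMD10 had a log2 change of -0.0066 ± 0.13 and -0.13 ± 0.22 at 24 h (limma adjusted p = 0.984 and 0.69). PSMD10 had its widest spread at 6 h, where the pigs stood at 7.21, 6.88 and 7.63.

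**Figure D5:**
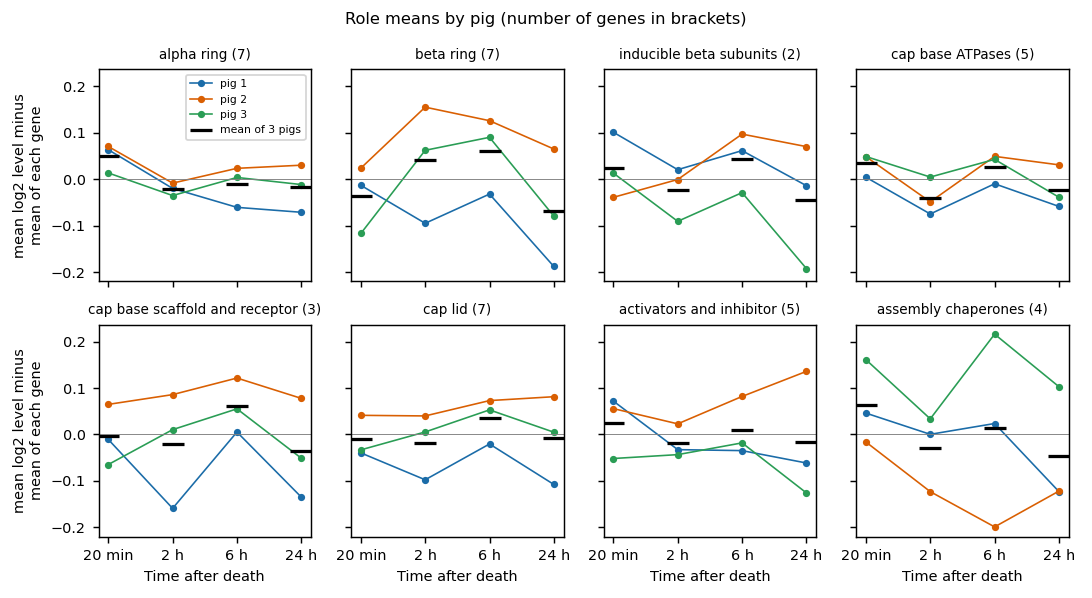
Mean log2 level of the genes of each role (y axis, each gene minus its mean over the 12 arrays) at the 4 times (x axis) in each pig, with black bars for the mean of 3 pigs; brackets give the number of genes. The means of the 3 pigs stay between -0.067 and 0.064, and single pigs reach -0.20 and 0.22 in the chaperones.

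The spans between the pigs and between the times were both small. The pig means are 3, of 4 arrays each, and the time means 4, of 3 arrays each. Noise alone widens the time span more, so the 2 spans are not like measures. The median span of the pig means over the 40 genes was 0.13 on the log2 scale and the median span of the time means 0.11, and the span was larger between pigs for 22 of 40 genes, against 60.6% of all 6765 genes. In pig 1, 4 genes lay wholly apart from the other pigs on all 4 arrays, against 6.63% of all probe sets: PSMG1 above, and PSMA5, PSMB6 and PSMD12 below. In pig 2 this held for 6 genes, against 5.87%, all of them above: PSMA5, PSMB1, PSMD4, PSMD6, PSME1 and PSME4. In pig 3 it held for PSMB1 and PSME4, both below, against 4.63%. The role groups divided the pigs in different ways. For the alpha ring, the beta ring, the lid and the 3 further base subunits pig 2 was highest at all 4 times. For the chaperones pig 3 was highest at all 4.

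Partners of the proteasome and enzymes that deliver its substrates were read beside the members. Of 18 partner and control genes listed, 6 were on the array. At 24 h 6 of 6 had a negative change, against 48.0% of all probe sets and 52.8% of all genes. At an unadjusted p under 0.05 there were 0 higher and 1 lower, against 6.41% and 6.67%. That 1 was AKIRIN2, which encodes a factor that brings proteasomes into the nucleus, with a change of -0.29 ± 0.22 (limma adjusted p = 0.312). SEM1, a small subunit of the lid, had a log2 change of -0.13 ± 0.012 at 2 h, -0.12 ± 0.018 at 6 h and -0.10 ± 0.084 at 24 h (limma adjusted p = 0.665, 0.644 and 0.584). TXNL1, a thioredoxin-like protein bound to the cap, had a log2 change of -0.13 ± 0.049 at 24 h (limma adjusted p = 0.512). Of 26 genes for ubiquitin, its enzymes and shuttle factors, 13 were on the array. At 24 h 5 were higher and 8 lower, against 48.0% of all probe sets and 52.8% of all genes lower. Of the 13, 0 were higher and 2 lower at an unadjusted p under 0.05, against 6.41% and 6.67% of all probe sets. These 2 were UBE2K and UBE2N, both of which encode ubiquitin-conjugating enzymes. UBE2K had a log2 change of -0.19 ± 0.080 at 2 h, -0.24 ± 0.096 at 6 h and -0.36 ± 0.044 at 24 h, lower in 3 of 3 pigs each time (limma adjusted p = 0.608, 0.498 and 0.193). UBE2N had a log2 change of -0.20 ± 0.050 at 24 h (limma adjusted p = 0.306). STUB1 encodes a ubiquitin ligase that works with heat shock proteins. Its log2 change was 0.12 ± 0.061 at 2 h and 0.18 ± 0.15 at 6 h, higher in 3 of 3 pigs each time. At 24 h it was 0.033 ± 0.11 (limma adjusted p = 0.718, 0.570 and 0.891 at the 3 times). The median change at 24 h was -0.094 in the first list and -0.056 in the second. It was -0.050 for the 40 proteasome genes, 0.0082 for all probe sets and -0.011 for all genes.

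Markers of the other cell types of muscle had unequal changes in the 3 pigs. The mean change at 24 h was 0.10, -0.016 and -0.53 in pigs 1, 2 and 3 over 10 of 13 fibroblast and matrix markers, -0.028, 0.33 and -0.16 over 10 of 12 endothelial markers, and -0.11, -0.10 and -0.39 over 6 of 8 adipocyte markers. It was 0.0020, 0.060 and 0.079 over the 10 skeletal muscle markers and 0.019, 0.078 and -0.096 over 2 of 7 blood markers. At an unadjusted p under 0.05, 0 fibroblast markers were higher and 1 lower, 1 endothelial marker was higher and 0 lower, 1 adipocyte marker was higher and 2 lower, 1 skeletal muscle marker (DES) was higher and 0 lower, and 0 blood markers were higher or lower, against 6.41% and 6.67% of all probe sets. The mean log2 level at 20 min and at 24 h ranged over 8.96 to 9.78 and 8.95 to 9.38 for fibroblast markers, 7.08 to 7.14 and 6.98 to 7.45 for endothelial markers and 7.19 to 7.63 and 7.08 to 7.25 for adipocyte markers. At 24 h the largest negative mean of the fibroblast, leukocyte and adipocyte lists was in pig 3, and that of the 40 proteasome genes in pig 1. The fibroblast mean level of pig 3 was 9.78 at 20 min and 9.26, 9.24 and 9.25 at 2 h, 6 h and 24 h. This difference was thus present from 2 h on, and the 20 min array of pig 3 enters all its comparisons with 20 min. In pig 3 the leukocyte mean change was -0.38 at 2 h and -0.34 at 6 h, and the adipocyte one -0.23 and -0.37. The part of these markers in the proteasome values was not tested.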

How the data were processed

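Total RNA was hybridised to one-colour porcine arrays, 12 in all. Each probe set has 1 log2 value per array as deposited; the submitters' processing notes name RMA and affy, without versions or parameters. The tests covered 23999 of 24123 probe sets, since 124 were controls. Symbols came from the 2016 platform annotation, and all 46 member probe sets kept their symbol in the Sscrofa11.1 RefSeq gene table when matched by gene ID. The array's own genome build was not used here, so positions are left out.

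The model was fitted with limma 3.58.1 (R 4.3.3; statmod 1.5.0 for the random block) as 1 linear model of 4 times with pig as a fixed block (6 residual and 5.67 prior degrees of freedom). All p-values are two-sided, with Benjamini-Hochberg adjustment over all 23999 probe sets within each test, with 0.05 as the threshold. Changes are means ± SD over 3 pigs unless said otherwise. The number of arrays limits the precision. The titles give the pig number, and the design text says that 1 muscle was sampled repeatedly: deviations from the time means correlated with r from 0.409 to 0.656 in the 18 pairs of arrays of 1 pig.

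Members and gene lists were chosen with earlier results of these data known. Named with values were members past the threshold, the 2 with the smallest F test p in each role (all where a role has up to 4), up to 6 per comparison with 20 min at an unadjusted p under 0.05, and up to 3 per other list. Members named beyond that, the further probe sets of a member among them, were chosen to account for all 40 genes, after their values were seen. The model was tested on simulated data.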

Additional observations from a re-analysis of the deposited data

How the results depend on the processing

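The 12 alternatives were no replicate block, pig as a random block, a trended and robust prior, cyclic loess, arrays centred on the brightest 5%, leaving out the dimmest 40% of probe sets, each pig left out in turn, the mean and the dimmest of the probe sets of a gene, and, chosen after seeing the data, leaving out the 20 min array of pig 3. In each of the 6 tests under each of the 12 alternatives 0 proteasome genes passed, with a smallest adjusted p of 0.230. Without the replicate block the smallest adjusted p was 0.805 at 24 h. In that setting 0 members had an unadjusted p under 0.05 in any of the 6 tests, against 251 to 1394 of 23999 probe sets. With each pig left out the median log2 change of the members ran from -0.067 to -0.039 at 2 h, from -0.023 to 0.017 at 6 h and from -0.088 to -0.021 at 24 h. Over all alternatives it ran from -0.067 to -0.029, from -0.027 to 0.017 and from -0.088 to -0.021. The counts at an unadjusted p under 0.05 ran from 0 to 3 members at 2 h and 24 h and from 0 to 2 at 6 h. In the main fit they were 2, 1 and 3 at 2 h, 6 h and 24 h, against 1908, 2119 and 3138 of 23999 probe sets. Between 6 h and 24 h the main count was 0, against 1938 of 23999 probe sets. It was 3 with the mean of the probe sets of a gene, against 562 of 6765 genes. It was 2 with the trended and robust prior and without pig 2, against 1857 and 1971 of 23999 probe sets. It was 1 without the dimmest 40%, against 1175 of 14399, and 1 with the dimmest probe set of a gene, against 1938 of 23999. The 3 pigs and 1 array per pig and time limit what the values can show, and signal over background per probe was not used here.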
